A study of Mus musculus with 19 samples.

Results

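The GIMAP genes (GTPases of the immunity-associated protein family) encode GTP-binding proteins of lymphocytes. The mouse members examined were Gimap1, Gimap3, Gimap4, Gimap5, Gimap6, Gimap7, Gimap8 and Gimap9, taken as the rows of those names in the gene count table, 8 of its 23458 genes. All 8 passed the filter on low counts, and the lowest count of any member in any library was 12.

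GIMAP proteins bind GTP through a domain named after a plant gene, and several sit on the membranes of lysosomes, the endoplasmic reticulum or mitochondria. The family is best known for the survival of T and B cells: loss of Gimap5 or Gimap1 leaves rodents with few peripheral lymphocytes, whereas Gimap4 speeds the death of T cells. In the thymus, transcripts of several members rise as CD4+CD8+ (double-positive) cells are selected and mature.

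RNA was sequenced in 17 libraries of C57BL/6 mice from 2 models of leukemia, retroviral and knock-in, with an internal tandem duplication of the receptor FLT3 (FLT3-ITD), to ask how loss of the DNA methyltransferase gene Dnmt3a changes expression there. In the retroviral model, marrow of Mx1-cre+ donors was transduced and transplanted into irradiated recipients, from whose thymus or marrow donor-derived CD4+CD8+ cells were sorted. Its groups were Dnmt3a+/+ with MSCV_GFP (WT-GFP, thymocytes, n = 2), Dnmt3af/f with MSCV_GFP (KO-GFP, thymocytes, n = 2), Dnmt3a+/+ with MSCV_FLT3-ITD-GFP (WT-ITD, leukemias, n = 3) and Dnmt3af/f with MSCV_FLT3-ITD-GFP (KO-ITD, leukemias, n = 4), where f is an allele that Cre can delete. In the knock-in model, bulk marrow of Flt3+/ITD mice was taken without a sort. Its groups were ER-cre-;Dnmt3af/f (pre-leukemic, n = 3), ER-cre+;Dnmt3af/+ (Dnmt3a f/+ leukemias, n = 2) and ER-cre+;Dnmt3af/f (Dnmt3a f/f leukemia, n = 1). All retroviral groups carry Mx1-cre, which acts in blood cells and beyond, and the retrovirus drives FLT3-ITD from its own promoter. Neither the ages of the animals nor the time since transplantation is given in these sources.

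Dnmt3a was at 144.2 to 257.2 CPM (counts per 1000000) in the GFP libraries, with KO-GFP at 207.1 and 144.2. In leukemias it was at 180.2, 237.7 and 182.7 CPM (WT-ITD) and at 65.8, 126.7, 68.07 and 53.03 CPM (KO-ITD). The Dnmt3a f/+ leukemias had 54.96 and 47.37 CPM, the f/f leukemia 36.46 CPM and the pre-leukemic libraries 129.6 to 153.5 CPM. Exons that Cre leaves in place are counted too, which makes this a partial check of the genotypes. Total counts were 4933890 to 25331908 per library. The T cell receptor gene Cd3e was at 262.3 to 431.1 CPM in the 11 retroviral libraries and at most at 5.52 CPM in the 6 knock-in libraries, so T cell transcripts were scarce in knock-in marrow. The knock-in libraries and KO-ITD replicates 3 and 4 were deposited in a second submission, and among ITD leukemias WT-ITD replicates 1 and 3 and KO-ITD replicates 3 and 4 came from thymus. All 4 GFP libraries came from thymus. Donors were enriched for Sca-1 in WT-ITD replicate 1 and all of KO-ITD, and for ckit in WT-ITD replicate 2 and both KO-GFP libraries. Whole marrow was named for WT-ITD replicate 3, and no enrichment was given for WT-GFP. Dnmt3a f/+ replicate 1 and KO-ITD replicate 3 stood apart in their Gimap levels, and values without them are given beside the results they change.

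The 8 genes formed 1 cluster of 123.6 kb on chromosome 6 of the build mm9, used for the deposited gene models, with no other gene of the count table between them. In order along the chromosome they were Gimap8 (chr6:48597233-48610874), Gimap9 (chr6:48626134-48628703), Gimap4 (chr6:48634577-48642061), Gimap6 (chr6:48651582-48658243), Gimap7 (chr6:48668620-48674635), Gimap1 (chr6:48689046-48693794), Gimap5 (chr6:48696196-48704199) and Gimap3 (chr6:48714463-48720850). Gimap6 and Gimap3 lie on the minus strand and the other 6 on the plus strand. Gimap1 and Gimap5, both needed for lymphocyte survival, are neighbours, with 2401 bases between their models.

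Because Dnmt3a methylates CG dinucleotides, the promoters of 4 members are shown: Gimap3 and Gimap4, the members that varied most between libraries, Gimap1, the steadiest in the retroviral model, and Gimap9, whose promoter held the most CG. Each line gives the 200 bases before the RefSeq start site, 5′ to 3′ on the gene's strand, with every CG in capitals. The windows are chr6:48770852-48771051 (minus strand) for Gimap3, chr6:48684378-48684577 (plus) for Gimap4, chr6:48738847-48739046 (plus) for Gimap1 and chr6:48675935-48676134 (plus) for Gimap9, in RefSeq's GRCm38.p6, a later build than that of the gene models.
Gimap3: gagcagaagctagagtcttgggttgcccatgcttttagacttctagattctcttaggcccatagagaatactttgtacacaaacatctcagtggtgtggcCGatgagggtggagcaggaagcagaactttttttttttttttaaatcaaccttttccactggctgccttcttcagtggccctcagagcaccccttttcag
Gimap4: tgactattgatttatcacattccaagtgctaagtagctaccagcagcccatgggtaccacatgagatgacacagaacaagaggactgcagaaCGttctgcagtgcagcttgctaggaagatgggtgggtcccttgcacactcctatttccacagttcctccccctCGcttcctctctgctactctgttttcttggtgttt
Gimap1: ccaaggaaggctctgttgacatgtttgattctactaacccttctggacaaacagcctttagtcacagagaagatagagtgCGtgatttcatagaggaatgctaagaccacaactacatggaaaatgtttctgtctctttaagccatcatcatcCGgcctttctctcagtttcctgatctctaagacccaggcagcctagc
Gimap9: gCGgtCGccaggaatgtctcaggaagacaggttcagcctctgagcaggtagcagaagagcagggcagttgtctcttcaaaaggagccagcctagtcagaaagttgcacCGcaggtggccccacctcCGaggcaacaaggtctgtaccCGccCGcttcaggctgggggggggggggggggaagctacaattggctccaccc
The printed stretches hold 1 CG for Gimap3, 2 each for Gimap4 and Gimap1 and 6 for Gimap9.

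Over the full RefSeq windows of 300 bases (250 before to 50 after the start), all 8 members matched, with 9 windows since Gimap8 has 2 starts. They held 2 to 8 CG, against a median of 7 over 32851 windows of the same length. Gimap9 had 8, and the windows of Gimap1, Gimap4, Gimap5 and Gimap6 had 4, Gimap3 and Gimap7 2, and those of Gimap8 3 and 2. Gimap9 alone was above the median, and 38% of all windows held 4 CG or fewer. The STAT motif TTCNNNGAA, the same on both strands, was in windows of 4 members (Gimap3, Gimap6, Gimap7 and Gimap8) and in 8.3% of all windows. In Gimap3 it began 5 bases before the start site as TTCAGAGAA. The RUNX motif TGTGGT, searched on both strands, was in 3 members (Gimap1, Gimap4 and Gimap7) and 16.8% of all windows. The ETS motif GGAAGT, also on both strands, was in 4 members (Gimap1, Gimap5, Gimap6 and Gimap9) and 23.8% of all windows. Gimap3 alone held the RBPJ motif TGGGAA, which 25.6% of all windows hold. The short motif of KLF factors, CACCC, was in 5 members (Gimap3, Gimap4, Gimap5, Gimap8 and Gimap9) and 57.5% of all windows. The E-box CAGCTG was in the window of 0 members, against 16.3% of all windows. The motif read by GATA factors, searched as AGATAA, was likewise in 0, against 11.2%. These are matches of letters, not measured binding sites.

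Gimap3 and Gimap5 are close relatives, and 190 of the 2528 different 50-base windows in the protein-coding transcripts of Gimap3 (7.52%) also occurred in Gimap5 (GENCODE transcripts). No other pair of members shared a window. At 100 bases, 41 windows of Gimap3 were shared, 1.65%. In that annotation Gm28053, a joined transcript on the same strand, overlaps Gimap7, Gimap1 and Gimap5, and the antisense gene Gimap1os overlaps Gimap1. Neither has a row of its own in the count table, and the sources used here do not say whether counting used strand, so counts of Gimap1, Gimap3, Gimap5 and Gimap7 may include some of their overlapping or related transcripts.

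In thymocytes with GFP alone the cluster was active throughout, and Gimap6 was its highest member. Gimap6 binds GABARAPL2 and acts in autophagy. Per kb of exon it averaged 237.6 CPM per kb in WT-GFP and 208.4 in KO-GFP. Gimap9, a member of little-known function, followed at 136.9 and 126.8 CPM per kb, and Gimap1 at 88.54 and 92.5. Gimap4 (57.58 and 57.0) and Gimap8 (54.86 and 53.92) overlapped in both groups. Gimap3 followed at 33.11 and 29.86 CPM per kb, and Gimap5 (18.24 and 13.81) and Gimap7 (13.37 and 14.61) were lowest. The first 3 places, Gimap6, Gimap9 and Gimap1, did not overlap with each other in either GFP group. In WT-ITD the same 3 led at 65.69, 61.86 and 53.54 CPM per kb, with overlapping libraries, and Gimap8 followed at 11.97. Pre-leukemic marrow had Gimap6 (93.25), Gimap1 (50.88) and Gimap9 (29.82) in front and Gimap3 last (3.76 CPM per kb). Counting each transcript over its own length left this order as it was in WT-GFP.

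**Figure D1:**
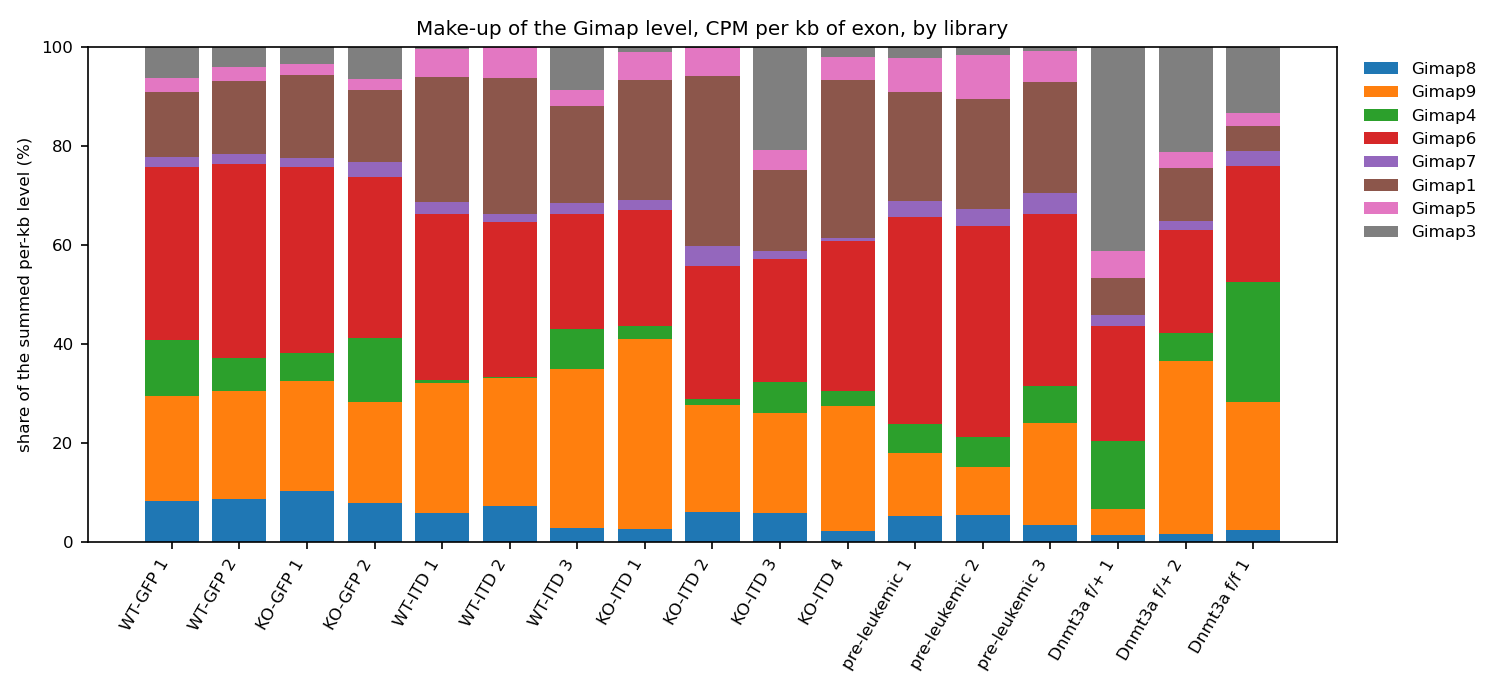
Share of each member in the summed Gimap level (CPM per kb of exon, in percent of the sum) for each library, stacked from Gimap8 at the bottom to Gimap3 at the top. Gimap3 takes 41.1% and 21.2% in the Dnmt3a f/+ leukemias, 13.4% in the f/f leukemia and 20.9% in KO-ITD replicate 3, against 3.49% to 6.36% in the GFP libraries.

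The make-up of the cluster differed between libraries, as the plot of shares shows. Gimap6 gave 32.6% to 39.3% of the summed per-kb level in the GFP libraries and 23.3% to 33.7% in ITD leukemias. Gimap1 gave 13% to 16.7% in GFP and 16.4% to 34.4% in ITD libraries. Gimap3 gave under 1% in WT-ITD replicates 1 (0.306%) and 2 (0.159%) and in KO-ITD replicates 1 (0.892%) and 2 (0.206%).

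Much of the cluster was lower in leukemias with FLT3-ITD than in thymocytes. Over both Dnmt3a genotypes, a contrast added once the data had been seen, Gimap4, Gimap6, Gimap8 and Gimap9 fell, by 2.88, 1.77, 2.22 and 1.06 (log2). Gimap1, Gimap3, Gimap5 and Gimap7 did not pass the test, and 12.7% of all genes were called lower. Within each genotype, WT-ITD against WT-GFP and KO-ITD against KO-GFP, 0 of 8 were called. The calls over both genotypes depended on single libraries. In bulk RNA, fewer cells that express a gene and less RNA per cell cannot be told apart.

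Gimap6 had levels of 363.4 and 402.6 CPM in WT-GFP libraries and of 341.3 and 330.5 CPM in those of KO-GFP. Its WT-ITD leukemias had 130.7, 109.0 and 78.02 CPM and its KO-ITD leukemias 93.29, 80.9, 165.3 and 76.7 CPM. Every leukemia lay below every GFP library, and the highest leukemia was KO-ITD replicate 3. Gimap8, the largest member and one with several GTP-binding domains, was at 200.1, 205.9, 217.2 and 181.8 CPM in the 4 GFP libraries. Its leukemias had 51.64, 58.59 and 22.65 CPM in WT-ITD and 24.82, 42.21, 89.12 and 13.23 CPM in KO-ITD. Its highest leukemia reached less than the lowest thymocyte library, again in KO-ITD replicate 3.

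Gimap9 had levels of 188.2 and 190.5 CPM in WT-GFP libraries and of 173.0 and 177.8 CPM in those of KO-GFP, the least variable level among thymocytes. The leukemias had 87.48, 77.03 and 92.14 CPM in WT-ITD and 130.5, 55.57, 114.9 and 54.85 CPM in KO-ITD. The 7 leukemias did not overlap with the thymocytes. Gimap4, which speeds T cell death, had levels of 132.4 and 76.01 CPM in WT-GFP libraries and of 57.63 and 148.7 CPM in those of KO-GFP. In leukemias it was at 2.31, 1.1 and 30.38 CPM (WT-ITD) and at 11.33, 4.73, 46.79 and 8.25 CPM (KO-ITD). Its leukemias spanned more than an order of magnitude, with WT-ITD replicate 3 and KO-ITD replicate 3 nearest to the thymocytes.

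Gimap1, needed for mature T and B cells, was at 126.2, 140.3, 141.6 and 136.8 CPM in the GFP libraries. Leukemias had 91.37, 89.23 and 61.14 CPM in WT-ITD and 89.98, 96.73, 101.9 and 75.36 CPM in KO-ITD. These leukemias were lower than all thymocytes too. Gimap7, which can activate the GTPase of other family members, was at 17.69, 16.25, 12.97 and 24.11 CPM in the GFP libraries and at 1.46 to 9.51 CPM in the 7 leukemias (median 6.11), with no overlap.

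Gimap5, the survival factor of peripheral T cells, overlapped between the groups. It was at 35.82, 35.05, 24.53 and 29.12 CPM in the GFP libraries and at 13.01 to 32.47 CPM in the leukemias (median 26.05), and 3 of 7 leukemias were below every thymocyte library. Gimap3, its relative, had levels of 87.17 and 54.86 CPM in WT-GFP libraries and of 42.16 and 85.95 CPM in those of KO-GFP. Leukemias of WT-ITD had 1.58, 0.74 and 39.1 CPM and those of KO-ITD 4.71, 0.82, 184.3 and 7.16 CPM. Gimap3 thus had 5 leukemias at 0.74 to 7.16 CPM, 1 just under the thymocytes and 1, KO-ITD replicate 3, above all of them.

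**Figure D2:**
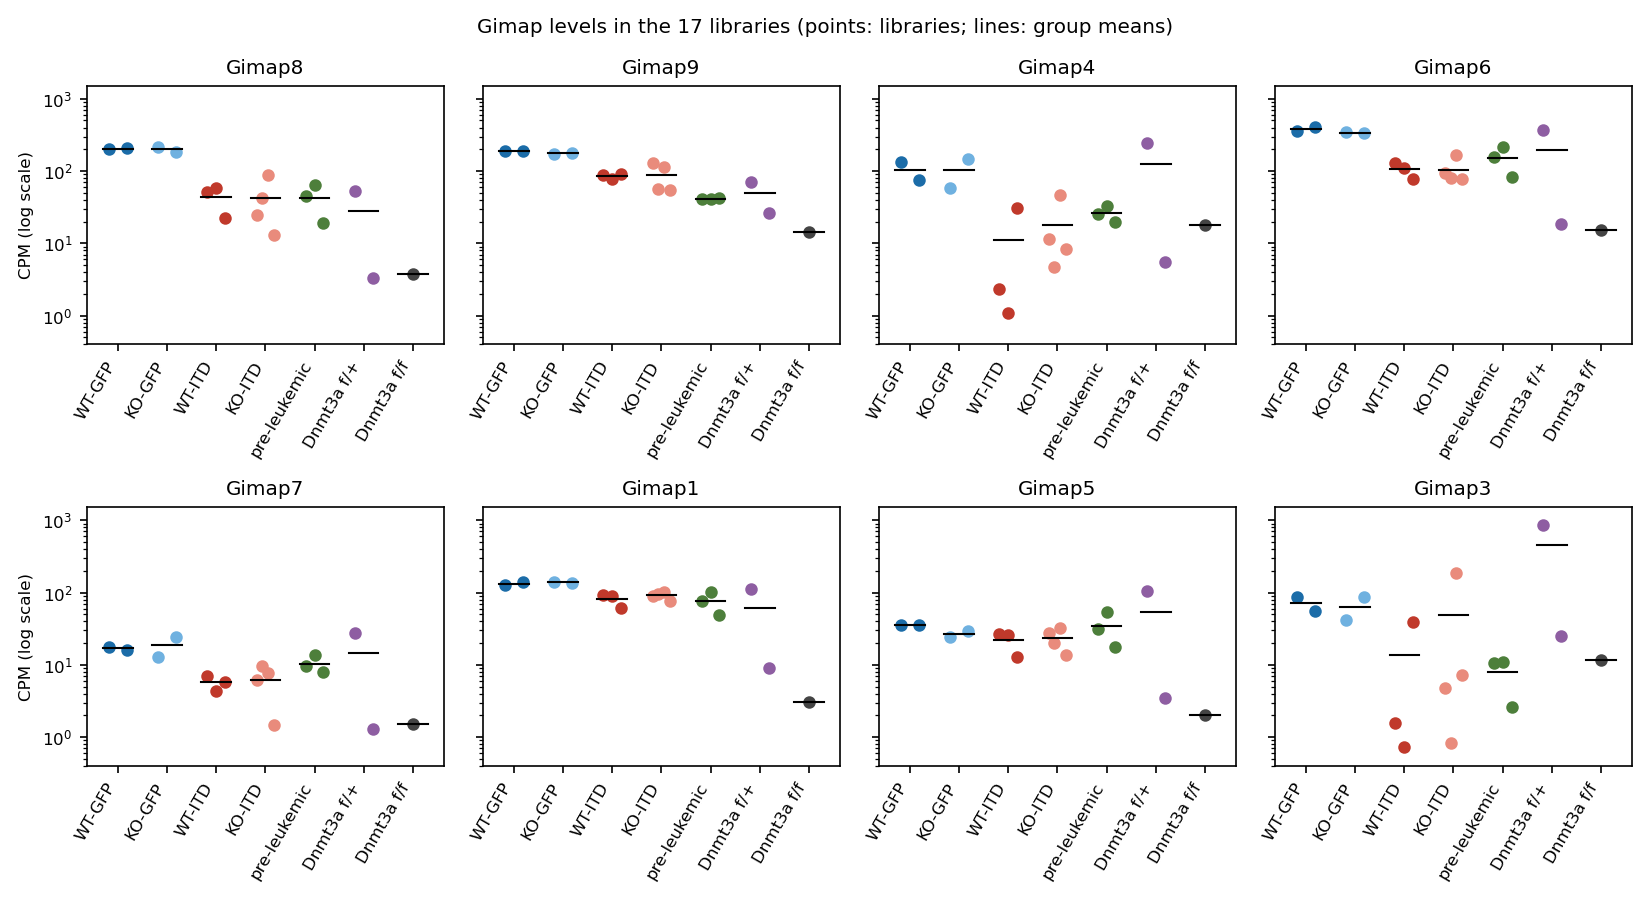
Level of each member in CPM on a log axis, 1 panel per gene in chromosomal order, with a point per library and a line at each group's mean. GFP thymocytes sit at 330.5 to 402.6 CPM for Gimap6 and ITD leukemias at 76.7 to 165.3, while Gimap3 spans 0.74 to 184.3 CPM among leukemias.

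The contrasts of the retroviral model share libraries, so they are not independent. WT-ITD against WT-GFP set FLT3-ITD leukemias against thymocytes where Dnmt3a is intact. Donor enrichment was mixed in WT-ITD and not given for WT-GFP, so its part cannot be told apart from that of FLT3-ITD here. All 8 members had a negative log2 fold change, with a median of -1.71 against 0.03 over all genes tested. By the quasi-likelihood test of edgeR, adjusted after Benjamini and Hochberg, 0 of 8 were called, and 0.89% of all genes tested were called lower and 1.35% higher. Gimap9 came nearest (log2 fold change -1.15, SE 0.40, adjusted p = 0.155), and 4 members were under an unadjusted p of 0.05, with 0 called by DESeq2 and 0 by limma voom. DESeq2 gave no adjusted p for Gimap3 and Gimap4 in any comparison. Every WT-ITD library lay below every WT-GFP library for 8 of 8 members, as it did for 24.9% of all genes. Fitted on these 5 libraries alone, the test called Gimap6 (-1.80, adjusted p = 0.0175), Gimap8 (-2.15, 0.0391) and Gimap9 (-1.10, 0.0158) lower, with 2.94% of all genes. On the authors' FPKM values of the first submission, limma called 6 members lower, all but Gimap3 and Gimap5, and 4.31% of all genes.

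The same contrast with Dnmt3af/f donors, KO-ITD against KO-GFP, gave 8 negative values with a median of -1.28 against 0.19 over all genes. None of the 8 was called by edgeR, where 9.85% of all genes were called lower and 9.8% higher, and 3 were under an unadjusted p of 0.05. Gimap8 (-2.24, SE 0.82, adjusted p = 0.0688), Gimap9 (-0.98, SE 0.37, adjusted p = 0.0756) and Gimap6 (-1.69, SE 0.71, adjusted p = 0.0997) came nearest, and DESeq2 called Gimap8 alone (adjusted p = 0.0289), with 13.8% of all genes lower. Limma voom called Gimap8 and Gimap9, with 11.8% of all genes lower. The libraries of 6 members did not overlap, all lower in KO-ITD, as for 21.8% of all genes. All KO-ITD donors were enriched for Sca-1 and both KO-GFP donors for ckit, so enrichment and FLT3-ITD cannot be told apart here. Without KO-ITD replicate 3 the log2 fold change of Gimap8 was -2.89 (adjusted p = 0.0378), and that of Gimap3 went from -0.38 (adjusted p = 0.893) to -3.97 (adjusted p = 0.0959).

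Both ITD groups against both GFP groups, a contrast added once the data had been seen, called 4 of 8 members lower by edgeR, where 12.7% of all genes were called lower and 15.3% higher. The median of the 8 was -1.47 against 0.13 over all genes. On the log2 scale Gimap9 fell by 1.06 (SE 0.27, adjusted p = 0.0132), from 182.4 ± 8.35 (SD, n = 4) to 87.48 ± 28.31 CPM (SD, n = 7). Gimap8 fell by 2.22 (SE 0.61, adjusted p = 0.0178), from 201.2 ± 14.8 to 43.18 ± 26.07 CPM. Gimap6 fell by 1.77 (SE 0.52, adjusted p = 0.0244), from 359.5 ± 31.86 to 104.8 ± 33.04 CPM. Gimap4 fell by 2.88 (SE 0.95, adjusted p = 0.0385), from 103.7 ± 43.74 to 14.98 ± 17.15 CPM. Each of these 4 was lower in 7 of 7 leukemias than in any thymocyte library. Gimap7 (-1.57, SE 0.60, adjusted p = 0.0673), Gimap1 (-0.67, SE 0.43, 0.256), Gimap3 (-1.37, SE 1.28, 0.433) and Gimap5 (-0.44, SE 0.59, 0.597) did not pass. Without KO-ITD replicate 3 Gimap3 was at -3.17 and was called lower (adjusted p = 0.0467). Leukemias did not overlap with thymocytes for 6 members, as for 11.6% of all genes.

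These calls depend on single libraries. A fit without 1 GFP library leaves 1 in its group. Each such fit also called fewer of all genes than the full fit, which called 28.1% in either direction. Leaving out WT-GFP replicate 2 or KO-GFP replicate 1 left 0 calls (lowest adjusted p = 0.0509 and 0.0512, both of Gimap9), and without either of the other GFP libraries 2 were called, Gimap8 and Gimap9. Over 22 alternatives the adjusted p of Gimap9 ran from 0.00197 to 0.0512 and passed in 20, that of Gimap8 from 0.000966 to 0.0757 (19) and that of Gimap6 from 0.00011 to 0.0886 (16). Gimap4 passed in 11 of 21 (0.00571 to 0.117). With Dnmt3a f/+ replicate 1, which is in neither arm, left out of the shared fit, 6 members were called, with Gimap1 (adjusted p = 0.0177) and Gimap7 (0.0135) added, and 14.6% of all genes were called lower.

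**Figure D3:**
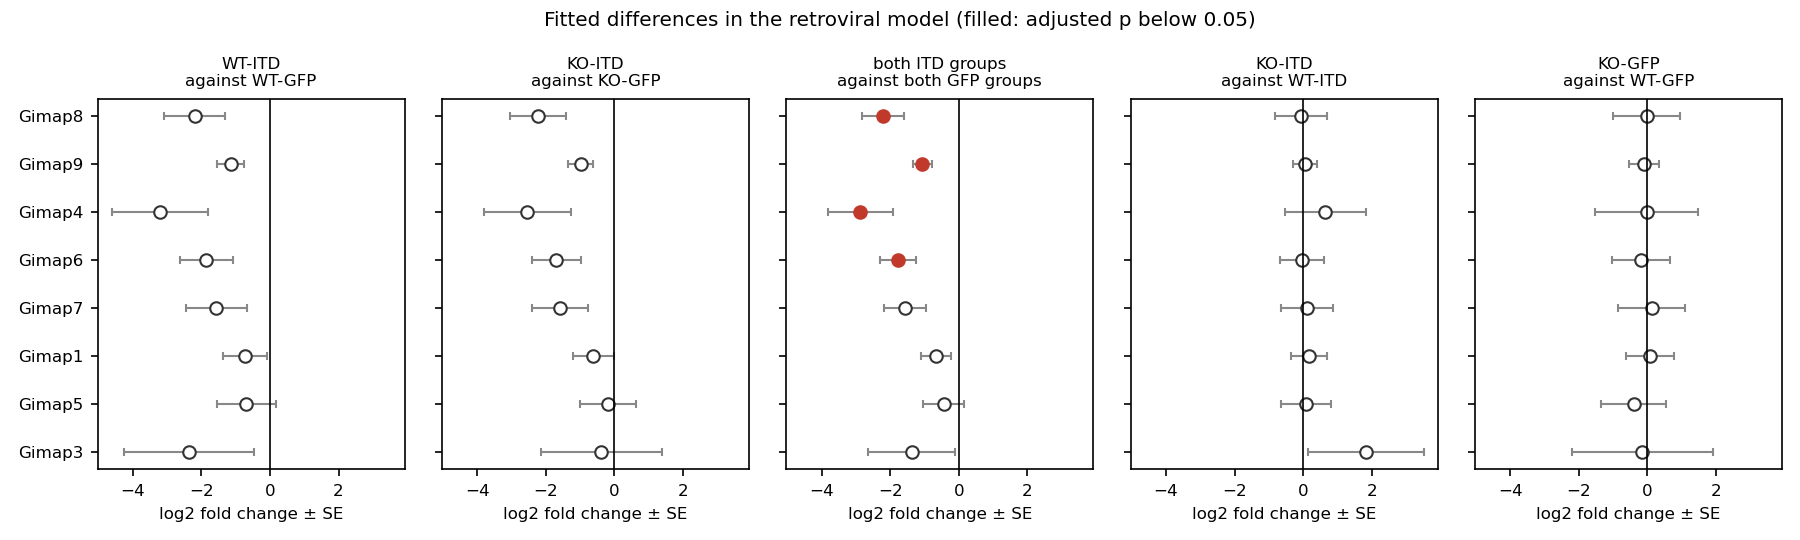
Log2 fold changes ± SE from edgeR for each member in 5 contrasts of the retroviral model, with filled points at an adjusted p below 0.05. Values lie left of 0 for all 8 members in the 3 contrasts of ITD with GFP and scatter around 0 in both contrasts of Dnmt3a genotype.

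Other cell types and sex moved with this difference. Of 15 T lineage genes 6 fell, the summed level being 9834 to 11050 CPM in GFP and 4688 to 8310 CPM in ITD libraries, and of 12 genes of double-positive thymocytes 7 fell and 1 rose (16150 to 19050 against 2312 to 11220 CPM). Of 10 stromal genes 9 rose (6.89 to 9.12 against 4.17 to 2795 CPM), of 11 erythroid genes 11 and of 12 granulocyte genes 8. Over all genes 15.3% were called higher and 12.7% lower. B cell genes had 0 calls of 12, and monocyte and macrophage genes had 1 of 12, higher. NK and cytotoxic genes had 1 higher and 2 lower of 12, and endothelial genes 3 higher and 1 lower of 12. The part of these cells in the fall of the Gimap genes was not tested. The X-inactivation RNA Xist was at 1463 to 2839 CPM in all GFP libraries and high, among leukemias of this model, only in WT-ITD replicate 3 (1234 CPM) and KO-ITD replicate 2 (2276 CPM), the other 5 being at 0.0 to 1.59 CPM. The mean of the 4 thymocyte libraries was 1.73 (Gimap1) to 6.21 (Gimap8) times the mean of these 2 leukemias over the 8 members. In these 2 leukemias Gimap6 was at 78.02 and 80.9 CPM and Gimap8 at 22.65 and 42.21 CPM. The part of sex in the fall of the Gimap genes was not tested. Within thymus libraries edgeR called 5 members lower, Gimap1, Gimap6, Gimap7, Gimap8 and Gimap9, and 16.8% of all genes.

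In the retroviral model no member was called between Dnmt3a genotypes, in thymocytes or in leukemias. Donor enrichment was Sca-1 in all of KO-ITD but mixed in WT-ITD, and ckit in KO-GFP but not given for WT-GFP. In this model only KO-ITD replicates 3 and 4 came from the second submission. Enrichment, submission and Dnmt3a genotype thus cannot be fully told apart. The Dnmt3a counts above are only a partial check that KO-GFP cells lost the gene. In KO-GFP against WT-GFP the 8 log2 fold changes ran from -0.40 (Gimap5, SE 0.95) to 0.13 (Gimap7, SE 0.98). EdgeR called 0 of 8, with 0 under an unadjusted p of 0.05, and it called 0.0% of all genes in either direction. DESeq2 and limma voom also called 0 members, and 0.0789% and 0.0% of all genes in either direction. The 2 KO-GFP libraries lay below both WT-GFP libraries for Gimap5, Gimap6 and Gimap9, as for 20.9% of all genes. In KO-ITD against WT-ITD, 7 of 8 values lay between -0.06 and 0.65, with the largest, 1.83, for Gimap3 (SE 1.69, adjusted p = 0.552). EdgeR again called 0 of 8, none under an unadjusted p of 0.05, and 0.284% of all genes lower and 0.206% higher. DESeq2 and limma voom again called 0 members, with 8.89% and 1.19% of all genes called in either direction. The libraries of the 2 leukemia groups overlapped for every member, while 6.24% of all genes were lower and 4.85% higher without overlap. Without KO-ITD replicate 3 the sign for Gimap3 turned (-1.75, adjusted p = 0.532), as it did in the first submission alone (-2.44, adjusted p = 0.431).

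The difference of the Dnmt3a effect between leukemias and thymocytes was largest for Gimap3 (1.98 on the log2 scale, SE 2.65, adjusted p = 0.909) and under 0.7 in size for the other 7 members. EdgeR called 0 of 8 here, 0 under an unadjusted p of 0.05, and 0.0% of all genes. DESeq2 and limma voom called 0 members too, and 0.597% and 0.0% of all genes in either direction. The standard errors of 0.56 to 2.65 set how large a difference was detectable with these numbers of libraries.

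Members of the cluster did not vary in step. Over the 11 retroviral libraries the range was 2.31-fold for Gimap1 and 2.73-fold for Gimap5 but 213.3-fold for Gimap3 and 120.8-fold for Gimap4, on a log2 scale with a prior count of 2. The closest pair was Gimap1 and Gimap5, with a root-mean-square difference of 0.30 between their centred log2 levels. Gimap6 was close to Gimap9 (0.47) and Gimap8 (0.56). Gimap3 was nearest to Gimap4 (1.00) and farthest from Gimap5 (2.60), the member it shares sequence with. The ratio of Gimap3 to Gimap5 was 1.57 to 2.95 in thymocytes, 0.03 and 0.06 in WT-ITD replicates 2 and 1, and 5.67 in KO-ITD replicate 3.

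Among thymocyte libraries, WT-GFP replicate 1 and KO-GFP replicate 2 had the higher Gimap3 and Gimap4 levels of their groups, and they also had more Il7r, the receptor for interleukin 7 (96.3 and 82.0 CPM against 36.2 and 56.7), and more Klf2, a factor of mature naive T cells (16.8 and 20.4 against 8.7 and 8.6). The exit receptor S1pr1 was at 28.1 and 25.9 CPM in these and at 16.3 and 10.7 in the others. These 3 genes were picked after their values were seen, and the summed level of the 14 genes of quiescence, egress and homing that hold them did not follow, at 4047 and 4015 CPM in these libraries and 3844 and 4202 CPM in the others. Among leukemias, WT-ITD replicate 3 and KO-ITD replicate 3 had the highest Gimap3 and Gimap4. They were also the only ITD libraries with more than 1 CPM of Ms4a1 (14.3 and 11.7), a gene singled out from 12 B cell genes. The summed level of the 12 did not follow. It was 113.9 and 224.7 CPM there, 65.1 to 145.8 in GFP and 11.15 to 136.0 in the other ITD libraries. The 136.0 CPM were in KO-ITD replicate 4, which had Gimap3 at 7.16 and Gimap4 at 8.25 CPM. KO-ITD replicate 3 also had the highest sum of 12 NK and cytotoxic genes (3335 CPM, with 3037 of Gzma), against 315.7 to 1537 in the other ITD libraries. The part of these cells in the Gimap3 and Gimap4 levels was not tested.

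By the fixed measure of likeness, root-mean-square difference of centred log2 CPM over the 11 retroviral libraries, the genes nearest to the mean of the 8 members were Sh2d3c (0.28), Mylpf (0.42), Vps37b (0.44), Cdkn1b, Itm2a, H2-K2, Cd52 and Sla (0.45 each), of 10309 genes with a median of 1.14. Over all 17 libraries they were Dusp2 (0.63), Rrad (0.69), Dok2 (0.78), Pard6g, Wbscr27, Ldoc1l, Slain1 and Sesn1 (0.79 to 0.84, median of all 1.41), with no gene in both lists. For Gimap3 alone, a search added later, the nearest in the retroviral libraries were Ccl5 (0.81), Nt5e (0.88) and S1pr1 (0.94). For Gimap4 they were Il18r1 (0.68), Synj2 (0.77) and Cd69 (0.83).

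**Figure D4:**
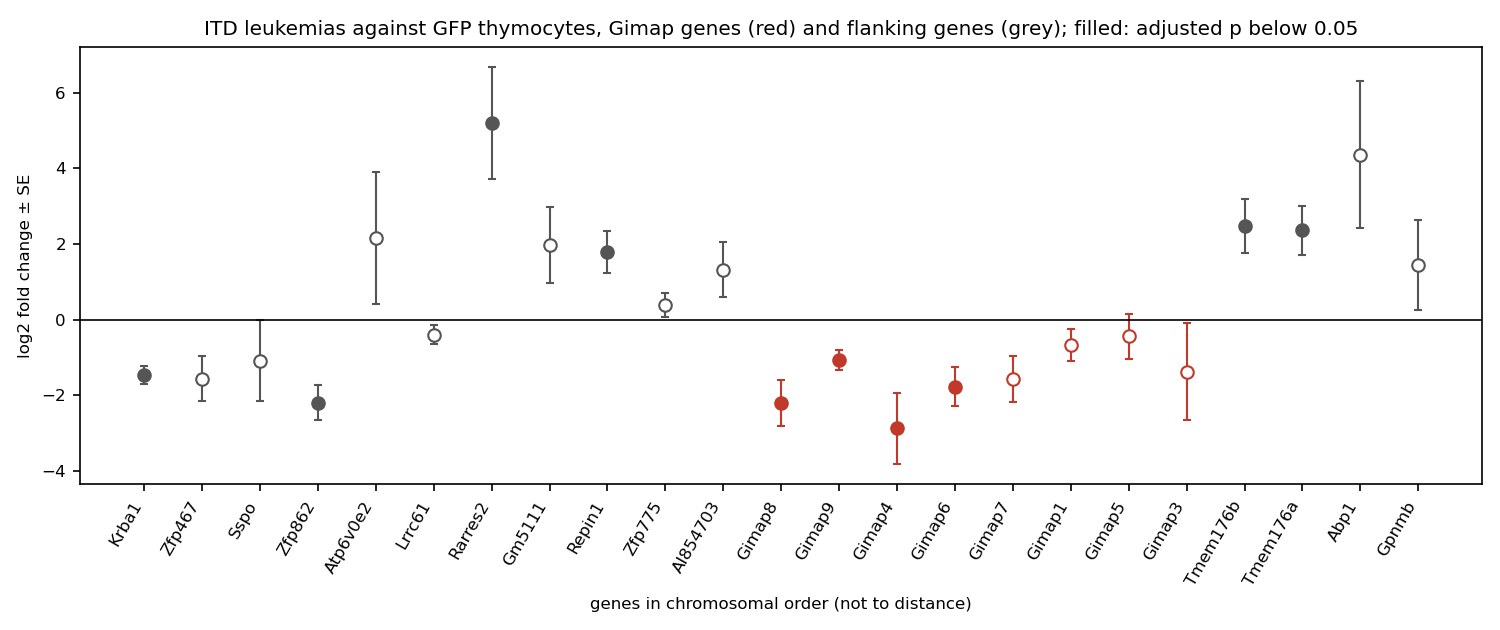
Log2 fold changes ± SE of both ITD groups against both GFP groups for the Gimap genes (red) and the flanking genes within 300 kb that passed the filter (grey), in chromosomal order and not to distance, with filled points at an adjusted p below 0.05. All Gimap values are below 0, while both nearest tested genes on the far side of Gimap3, Tmem176b and Tmem176a, rose by over 2.

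Of 18 genes within 300 kb of the cluster 15 passed the filter. In both ITD groups against both GFP groups 4 rose and 2 fell by edgeR, where 15.3% of all genes were called higher and 12.7% lower. The median of the 15 was 1.45 against -1.47 for the Gimap genes. It includes genes of low level, since Sspo, Atp6v0e2 and Abp1 reached at most 1.42, 1.34 and 1.21 CPM in any library. Tmem176b and Tmem176a, membrane proteins of myeloid and dendritic cells next to Gimap3, rose by 2.48 (SE 0.72, adjusted p = 0.0228) and 2.36 (SE 0.66, adjusted p = 0.0192). Repin1 rose by 1.79 (SE 0.56, adjusted p = 0.0319) and Rarres2, at most 0.13 CPM in GFP and 28.76 CPM in KO-ITD replicate 4, by 5.20 (SE 1.49, adjusted p = 0.0214). The 2 that fell were Krba1 (-1.47, SE 0.23, adjusted p = 0.00124) and Zfp862 (-2.19, SE 0.46, adjusted p = 0.00494), on the Gimap8 side. Krba1 was at 90.51 to 142.3 CPM in thymocytes, 39.29 to 79.31 in WT-ITD and 22.15 to 32.23 in KO-ITD.

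Of 13 genes for reported partners of GIMAP proteins 2 rose and 2 fell, near the shares of all genes in this contrast (15.3% higher and 12.7% lower). Among them the survival gene Bcl2 rose by 3.07 (SE 0.46, adjusted p = 0.000905) and the death effector Bax by 0.87 (SE 0.19, adjusted p = 0.00666), while Bcl2l1 fell by 1.25 (SE 0.23, adjusted p = 0.00245) and the kinase Gsk3b by 0.61 (SE 0.14, adjusted p = 0.00712). The other 9 did not pass, and the autophagy genes Gabarapl2 and Map1lc3b were at -0.13 and -0.07. Of 14 genes of T cell quiescence, egress and homing, 2 fell, Cd69 by 3.05 (SE 0.63, adjusted p = 0.00486) and Tcf7 by 0.94 (SE 0.28, adjusted p = 0.0262), and 12 did not pass, with a list median of -0.57. Of 14 interferon-inducible GTPases of other families, 3 rose (Gbp3, Gbp5 and Gbp7) and none fell, with a median of 0.10.

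Pre-leukemic marrow, which lacks T cells by its markers, still expressed every member. Gimap6 was at 156.8, 212.1 and 82.06 CPM in the 3 libraries, Gimap1 at 77.33, 102.8 and 49.63 CPM and Gimap5 at 31.64, 53.55 and 17.88 CPM. Gimap8 was at 45.69, 63.16 and 18.81 CPM and Gimap4 at 25.07, 33.18 and 19.83 CPM. Gimap9 was at 40.89 to 41.75 CPM, Gimap7 at 7.96 to 13.58 CPM and Gimap3 at 2.6 to 10.94 CPM. Replicate 3 had the lowest level of 7 members and replicate 2 the highest. T lineage genes summed to 108.4 to 147.8 CPM there, with Cd3e at 0.0 to 0.38 CPM and Cd8a at 0.13 to 0.71 CPM. Of 12 endothelial genes, several shared with blood stem and progenitor cells, 8 were called higher than in WT-GFP, as were 15.1% of all genes. The endothelial sum was 480.5 to 1063 CPM, while Cdh5, which marks mature endothelium, was at 0.19 to 0.53 CPM.

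Against WT-GFP, edgeR called 1 of 8 members lower in pre-leukemic marrow, where 16.7% of all genes were called lower and 15.1% higher. Gimap9 had a log2 fold change of -2.198 (SE 0.40, adjusted p = 0.00172) and fell from 189.4 ± 1.63 CPM (SD, n = 2) to 41.25 ± 0.45 CPM (SD, n = 3), passing under all 12 alternatives (adjusted p = 8.36e-06 to 0.0154). The next was Gimap8 (-2.26, SE 0.90, adjusted p = 0.0702). Gimap5 differed least (-0.05, SE 0.87, adjusted p = 0.984). The libraries of 7 members, all but Gimap5, did not overlap, as for 35.9% of all genes. This contrast sets unsorted marrow against sorted thymocytes, so cell type, model and submission cannot be told apart.

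The 2 Dnmt3a f/+ leukemias lay on opposite sides of the pre-leukemic mean for all members but Gimap3, which was higher in both. Replicate 1 had the highest level of Gimap3, Gimap4, Gimap5 and Gimap7 among all 17 libraries, and replicate 2 had low levels of nearly all members. Gimap3 was at 870.0 CPM in replicate 1, 24.97 CPM in replicate 2 and 11.69 CPM in the Dnmt3a f/f leukemia. That is 107.9 times the pre-leukemic mean of 8.07 CPM and 12.25 times the WT-GFP mean in replicate 1. Gimap4 was at 245.4 CPM in replicate 1, 5.51 CPM in replicate 2 and 17.96 CPM in the f/f leukemia. Gimap5 followed the same order between the f/+ libraries, at 104.8 and 3.44 CPM, with 2.04 CPM in the f/f leukemia.

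Gimap6 was at 370.7, 18.39 and 15.33 CPM in f/+ replicate 1, f/+ replicate 2 and the f/f leukemia. Gimap1 was at 111.5, 8.94 and 3.11 CPM, Gimap7 at 27.7, 1.29 and 1.5 CPM and Gimap8 at 52.65, 3.36 and 3.81 CPM in the same order. Gimap9 varied least, at 71.18, 26.62 and 14.42 CPM. Between the f/+ leukemias the ratio was 2.67 for Gimap9 and 12.46 to 44.54 for the other 7 members. Gimap3 was the only member above all pre-leukemic libraries in each of these 3 leukemias, though narrowly in the f/f leukemia (11.69 against at most 10.94 CPM). Of all genes, 22.7% lay above them in both f/+ leukemias and 37.4% in the f/f leukemia.

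**Figure D5:**
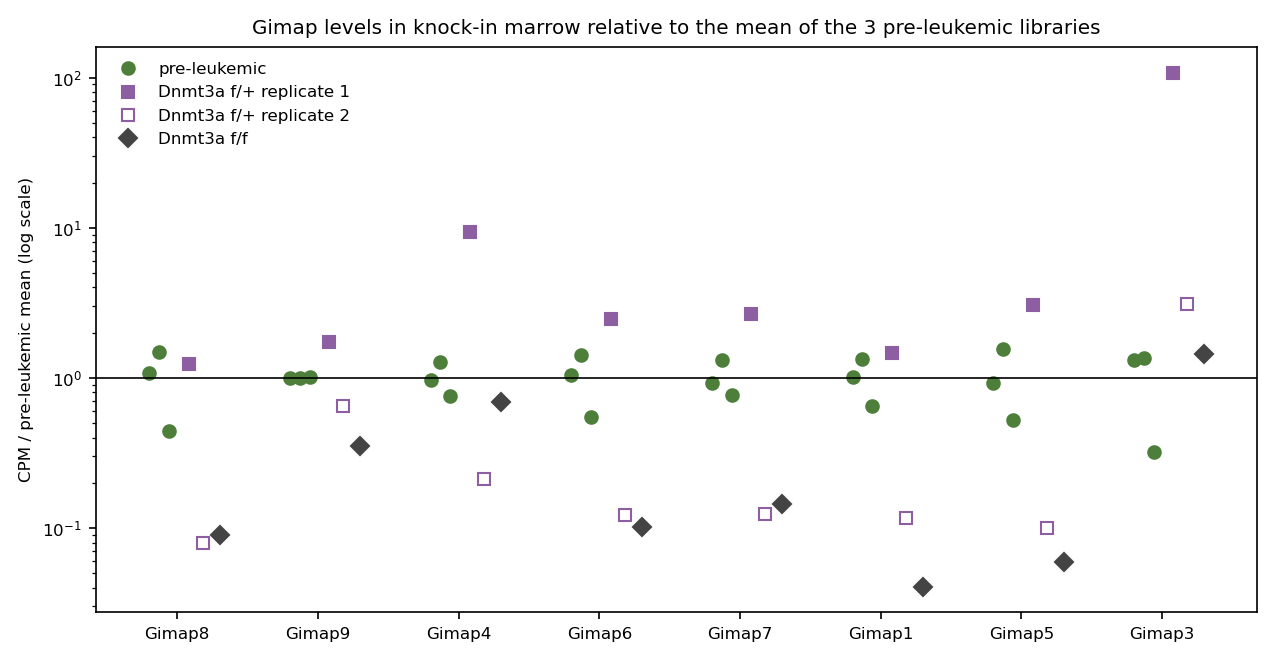
Levels in the 6 knock-in libraries divided by the mean of the 3 pre-leukemic libraries, on a log axis with a line at 1. Dnmt3a f/+ replicate 1 lies above 1 for all members, up to 107.9 for Gimap3, while replicate 2 and the f/f leukemia lie below 1 for all but Gimap3.

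Summed T and B cell markers in the high library were below those of thymocytes, but the T lineage sum was above that of the other knock-in libraries. In Dnmt3a f/+ replicate 1 the summed T lineage level was 349.8 CPM, against 108.4 to 147.8 CPM in the other knock-in libraries and 9834 to 11050 CPM in GFP thymocytes, with Cd3e at 3.14, Cd4 at 2.05 and Cd8a at 6.35 CPM. The 12 B cell genes summed to 38.09 CPM, with Ms4a1 at 0.064, and 12 NK and cytotoxic genes to 180.5 CPM, against 129.6 to 166.8 in pre-leukemic marrow, with Gzma at 3.27 CPM. Its granulocyte sum was 3845 CPM, with Mpo at 967.2, against 20290 CPM in replicate 2 and 15800 in the f/f leukemia, which were the knock-in libraries with the lowest Gimap sums. The endothelial sum was 473.5 CPM in replicate 1, 103.5 in replicate 2 and 172.5 in the f/f leukemia. Of 15 T lineage genes 5 rose in the f/+ leukemias over pre-leukemic marrow by edgeR, Cd3d, Cd3e, Cd3g, Cd2 and Thy1, and 0 fell. In that contrast 3.43% of all genes were called higher. The median log2 fold change of the 15 over pre-leukemic marrow was 0.90 in the f/+ leukemias and 0.97 in the f/f leukemia. The f/f leukemia had a summed T lineage level of 117.1 CPM and low Gimap levels. The part of T cells and of granulocyte content in these levels was not tested. Flanking Tmem176b was also highest in the high library, at 604.9 CPM.

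The Dnmt3a f/+ and f/f leukemias are compared with the same pre-leukemic libraries. Over both f/+ leukemias against pre-leukemic marrow edgeR called 0 of 8 members, and 1.57% of all genes lower and 3.43% higher. Gimap3 alone was under an unadjusted p of 0.05 (5.84, SE 2.16, adjusted p = 0.118). DESeq2 and limma voom called 0 members, and 16.8% and 4.58% of all genes in either direction. Gimap3 was higher in both f/+ libraries than in any pre-leukemic library, as were 22.7% of all genes. Without replicate 1 the direction of 5 members turned, Gimap4 (from 2.27 to -2.23), Gimap5 (0.66 to -3.31), Gimap6 (0.37 to -3.03), Gimap7 (0.49 to -3.00) and Gimap9 (0.25 to -0.63), and without replicate 2 that of Gimap1 (-0.34 to 0.54) and Gimap8 (-0.59 to 0.32). Without replicate 1 edgeR called Gimap1 (-3.09, adjusted p = 0.0021), Gimap5 (-3.31, adjusted p = 0.0196) and Gimap6 (-3.03, adjusted p = 0.0127) lower from the 1 remaining library, which is assumed to vary like the other groups, and 2.4% of all genes lower.

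The Dnmt3a f/f leukemia, a group of 1 library assumed to vary like the others, had 7 of 8 members below every pre-leukemic library, as had 37.1% of all genes, and Gimap3 above them, as had 37.4%. EdgeR called 1 of 8 lower, where 0.903% of all genes were called lower and 2.11% higher. Gimap1 fell by 4.62 in log2 units (SE 1.11, adjusted p = 0.0429), the pre-leukemic mean of 76.57 CPM being 24.62 times the 3.11 CPM of this leukemia. Its call was lost without any 1 of the pre-leukemic replicates, and its adjusted p ran from 9.04e-06 to 0.151 over 10 alternatives. Gimap5 (-4.07, SE 1.45, adjusted p = 0.14), Gimap6 (-3.29, SE 1.22, 0.154), Gimap9 (-1.52, SE 0.57, 0.156) and Gimap8 (-3.47, SE 1.45, 0.194) were next. With Dnmt3a f/+ replicate 1 left out of the shared spread, Gimap1 (adjusted p = 0.000556), Gimap5 (0.0111) and Gimap6 (0.0101) were called lower, with 2.44% of all genes.

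Transcripts could be told apart for Gimap1, Gimap4 and Gimap8, each with more than 1 model. The 1505-base transcript of Gimap1 took 77.9% to 100% of its estimated counts and the 1810-base transcript of Gimap4 57.7% to 100%, with medians of 94.3% and 89.7%. For Gimap8 the models of 3654 and 3648 bases differ by a few bases. The shorter took 8.84% to 17.8% in thymocytes and 7.58% to 39.9% in WT-ITD, but 0.0113% to 0.143% in KO-ITD. It took 0.0103% to 31.8% in pre-leukemic marrow and 62.6% in the f/f leukemia, where Gimap8 was at 3.81 CPM. No test was run on these shares, and for models so alike they rest on how the authors' software divided shared reads.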

How the data were processed

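RNA was polyA-selected and sequenced, per the labels' protocols. The submitters' processing notes name TopHat2 2.0.10, Cufflinks 2.1.1, Cuffdiff 2.1.1 and 2.2.1 and the build mm9. The authors deposited estimated counts per transcript and gene, and FPKM values (scaled for length and depth) for 9 libraries. Of the nonzero estimated counts 98.34% were whole (within 0.001), as were 100% for the 8 members, and the rest were rounded. The 19 samples form 17 libraries, since repeat runs share 1 value. Replicates are called biological but not tied to animals, so p-values measure the spread between samples. Of 15 replicate pairs, the smallest chi-square per degree of freedom was 8.4, so no pair was within sampling noise.

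CPM were computed with TMM factors (0.9426 to 1.076). EdgeR 4.0.16 (R 4.3.3) fitted 1 quasi-likelihood model to all 17 libraries and 15508 genes that passed filterByExpr, with Benjamini-Hochberg adjustment at 0.05 over all genes. Alternatives were DESeq2 1.42.0, limma 3.58.1 (voom), other filters and scalings, subsets of libraries, left-out replicates, and limma on log2(FPKM + 1) over 10323 genes, a scale that understates low genes. The contrast of both ITD with both GFP groups, its alternatives, and the fits on retroviral libraries alone or without Dnmt3a f/+ replicate 1 were chosen after seeing the data. Python 3.11.15, pandas 2.3.3 and numpy 2.4.6 were used for summaries. The scripts were tested on simulated data. Members and gene lists were chosen with earlier results of these data known. Named were all 8 members, list and flanking genes past the threshold, and the 8 genes most like the member mean with a mean of at least 5 CPM.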

Additional observations from a re-analysis of the deposited data

Results flagged for a closer look

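Gimap3 in KO-ITD replicate 3, at 184.3 CPM, stood apart from the other 3 libraries of its group, with a gap of 0.965 of the group's whole range, past the 95% critical value of Dixon's test. Gimap4 in the same library, at 46.79 CPM, had a gap of 0.843 of the range. The groups tested were the 8 members in KO-ITD, the only group of 4 or more libraries, and chance flags about 1 in 20 such groups. Both values come from 1 library and are not independent.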

How the results depend on the processing

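For WT-ITD against WT-GFP, where edgeR called 0 members, 3 were called with only the groups compared (7.18% of all genes called in either direction), 6 on FPKM (7.7%), 1 with the high Dnmt3a f/+ library left out of the fit (3.5%) and 1 with retroviral libraries only (2.39%), against 2.24% in the fit reported. For KO-ITD against KO-GFP (0 members), DESeq2 called 1 (34.3% of all genes), limma voom 2 (20.4%), thymus libraries 1 (28.7%), the first submission 2 (27.6%), FPKM 6 (23.4%), the fit without the high library 3 (23.5%) and retroviral libraries 3 (20.4%), against 19.6%. For the Dnmt3a f/f leukemia (1 member), DESeq2 called 4 (12.9%), limma voom 0 (5.68%), the replicate block 0 (3.5%), only the groups compared 6 (27.1%) and the fit without the high library 3 (6.65%), against 3.01%. For pre-leukemic marrow against WT-GFP (1 member), DESeq2 called 2 (41.8%), limma voom 2 (36.1%), only the groups compared 7 (63.8%) and the fit without the high library 4 (34.7%), against 31.9%. For both ITD against both GFP groups (4 members), 7 were called in the first submission (41.4%) and 7 on FPKM (35.9%), and 3 with the replicate block (24%), against 28.1%. The cause of these differences was not tested. Leaving out 1 replicate gave 0 to 3 members for the f/+ leukemias, 0 to 0 for the f/f leukemia, 0 to 1 for KO-ITD against KO-GFP, 0 to 5 for both ITD groups, 1 to 1 for pre-leukemic marrow and 0 to 0 for the other contrasts. For f/+ against pre-leukemic marrow, leaving out f/+ replicate 1 or 2 gave -3.315 to 1.615 for Gimap5 and -3.028 to 1.304 for Gimap6. Gimap4 (-2.23 to 3.24), Gimap7 (-3.00 to 1.42) and Gimap9 (-0.63 to 0.79) turned as well, all 5 being negative without replicate 1, and Gimap1 (-3.09 to 0.54) and Gimap8 (-3.65 to 0.32) turned without replicate 2. Over all genes, calls ranged from 23 to 1402 for WT-ITD against WT-GFP (347), from 147 to 5015 for KO-ITD against KO-GFP (3047), from 0 to 1272 for KO-ITD against WT-ITD (76), from 0 to 12 for KO-GFP against WT-GFP (0), from 0 to 80 for the difference of Dnmt3a effects (0), from 38 to 2353 for f/+ (775), from 36 to 3676 for f/f (467), from 1699 to 8646 for pre-leukemic marrow (4942) and from 1597 to 5606 for both ITD groups (4351). Same-numbered replicates correlated at -0.224 to 0.369, so numbers were not taken to pair samples. The uncalled sign changed in 36 of 144 values for KO-ITD against WT-ITD and in 0 of 176 for both ITD against both GFP groups.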
